A study of Drosophila melanogaster with 13 samples.

Results

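The Antennapedia complex is the cluster of 5 Drosophila Hox genes, labial (lab), proboscipedia (pb), Deformed (Dfd), Sex combs reduced (Scr) and Antennapedia (Antp), on chromosome arm 3R. Its binding by 3 other Hox proteins was read here from every peak in the deposited ChIP-Seq lists that overlapped 3R between 2480000 and 2830000 of BDGP release 5, a region of 350 kb. This rule took 215 of the 93820 peaks of 12 lists, and 22684 of those 93820 lay on 3R. Of the 215, 80 came from the 6 lists called at a q-value of 1e-10 (stringent) and 135 from the 6 lists called at 1e-2 (relaxed). The relaxed lists hold the same conditions, so the 215 peaks are not separate places on the chromosome.

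Hox genes encode homeodomain transcription factors that give each part of the body axis its identity. Those of the Antennapedia complex act in the head and thorax. Of these, lab acts most anteriorly, pb, Dfd and Scr behind it and Antp in the thorax. Ubx, abd-A and Abd-B of the separate bithorax complex act further back. A known property of the system is that more posterior Hox proteins can repress the more anterior Hox genes, and Ubx is known to repress Antp in the embryo. The complex also holds homeobox genes that have left the Hox role, among them zen, zen2, bcd and ftz. Along the chromosome the genes follow each other in the order lab, pb, zen2, zen, bcd, Dfd, Scr, ftz and Antp, with Antp the longest of these 9. This order comes from the RefSeq annotation of release 6, whose coordinates do not apply to the peak files, so positions are given from the lab end of the region and no peak was assigned to a gene.

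The cells were Kc167, a line derived from late female embryos, transiently transfected with an inducible vector and sorted for a matched level of the GFP-tagged Hox protein before ChIP with anti-GFP. Experiment 1 compared Ubx-GFP, Abd-A-GFP and Abd-B-GFP (2 replicates each, 36 bp reads). Experiment 2 compared Ubx-GFP (1 replicate), a mutant Ubx-GFP with amino acid changes at homeodomain residues that contact DNA (2 replicates), and Ubx-GFP expressed together with the cofactor Hth from 1 bicistronic vector (Ubx+Hth, 2 replicates), all with 100 bp reads. Hth is a TALE homeodomain protein that binds DNA together with Hox proteins and brings their partner Exd into the nucleus, and Kc167 cells do not otherwise express it. Within an experiment all cells came from the same mother plate. Replicates were combined before peaks were called, and the 2 input libraries of Experiment 1 served every list, so no value has a replicate error and no difference between lists could be tested. All intervals cover counting only. The libraries were sequenced to unequal depth, those of mutant Ubx and Ubx+Hth several times more deeply than that of Ubx in Experiment 2 and that of Abd-B more deeply than those of Ubx and Abd-A in Experiment 1. Depth cannot be read from peak lists, and its part in the lengths of the lists, the scores and the ranks was not tested. The score deposited with each peak is −log10 of the q-value and was ranked only within its own list.

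All 6 stringent lists had peaks in the complex. Ubx of Experiment 1 had 12 (exact Poisson 95% interval 6.20 to 21.0), Abd-A had 11 (5.49 to 19.7) and Abd-B had 19 (11.4 to 29.7). In Experiment 2, Ubx had 10 (4.80 to 18.4), mutant Ubx had 5 (1.62 to 11.7) and Ubx+Hth had 23 (14.6 to 34.5). In each experiment the longest list gave the most peaks here. The whole lists held 4830 (Ubx), 5656 (Abd-A) and 9681 (Abd-B) peaks in Experiment 1, and 4218 (Ubx), 1793 (mutant Ubx) and 7971 (Ubx+Hth) in Experiment 2. In the relaxed lists the counts drew together, with 21 Ubx, 20 Abd-A and 23 Abd-B peaks in Experiment 1, and 19 Ubx, 24 mutant Ubx and 28 Ubx+Hth peaks in Experiment 2. The mutant, lowest at the stringent q-value, was second highest at the relaxed one. Of the 135 relaxed peaks, 57 overlapped no stringent peak of the same condition, and 37 of those 57 had a score over 10, so a score past the stringent cutoff did not by itself place a peak in the stringent list. On 3R the share of such relaxed peaks with a score over 10 ran from 23.8% for mutant Ubx to 60.7% for Abd-B, and the reason was not tested.

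**Figure D1:**
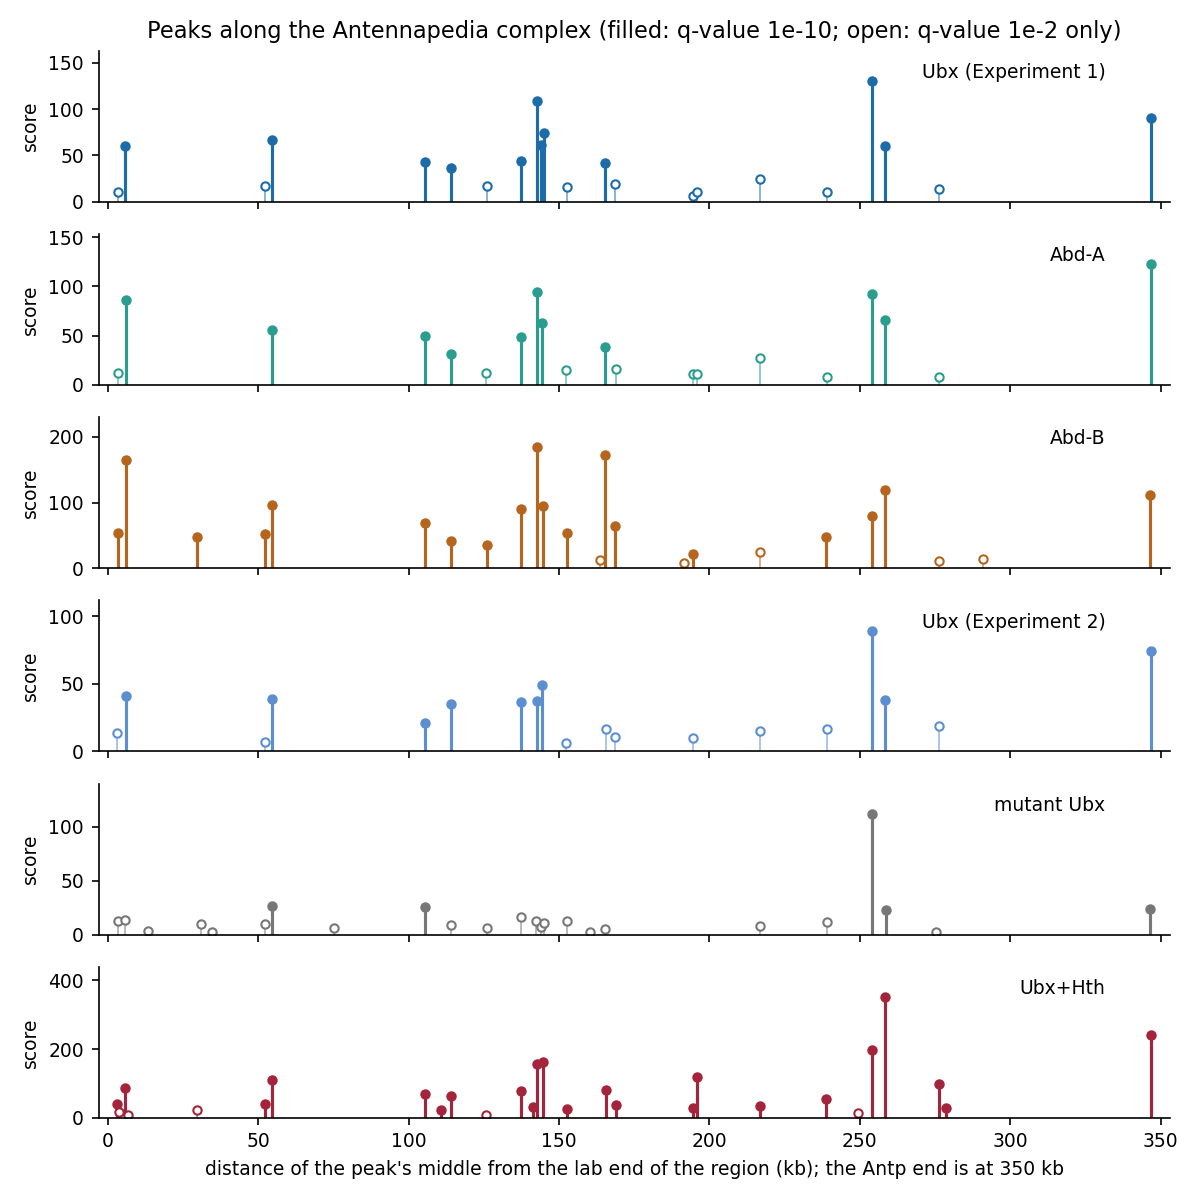
Peaks of the 6 conditions along the Antennapedia complex, with the distance of the middle of each peak from the lab end (kb) on the horizontal axis and its score (−log10 of the q-value, on a separate linear scale per condition) on the vertical axis. Filled points are stringent peaks and open points are relaxed peaks that overlap no stringent peak of the same condition. The same places recur from row to row, and between 278.8 and 346.2 kb from the lab end there is no filled point in any row.

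The density of stringent peaks in the complex was close to or below that of the whole arm. Ubx of Experiment 1 had 34.3 peaks per Mb in the complex and 42.2 on 3R, a ratio of 0.812 (Poisson interval of the count in the complex 0.419 to 1.42). The ratio was 0.639 for Abd-A (0.319 to 1.14), with 31.4 and 49.2 peaks per Mb, and 0.648 for Abd-B (0.390 to 1.01), with 54.3 and 83.7. In Experiment 2 it was 0.752 for Ubx (0.361 to 1.38), 0.933 for mutant Ubx (0.303 to 2.18) and 0.941 for Ubx+Hth (0.596 to 1.41). Every one of these stringent intervals includes 1. In the relaxed lists the Abd-B ratio was 0.614 (0.389 to 0.921), below 1 over its whole interval, and 68 of the 79 windows of this length on 3R had more relaxed Abd-B peaks, while the relaxed intervals of the other 5 lists included 1. When all lists were shortened to the 1793 highest-scoring peaks, the length of the mutant list, the ratio was 1.40 for Ubx of Experiment 1, 1.28 for Abd-A, 1.69 for Ubx of Experiment 2 and 1.47 for Ubx+Hth, and 0.5001 for Abd-B. The side of 1 on which the first 4 fell thus depended on how far down a list was read. These 4 ratios rested on 8, 7, 9 and 8 peaks of the complex and that of Abd-B on 3. No interval was computed for them, and the whole-list intervals include 1.

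Among the 79 windows of 350 kb that tile 3R from the start of the region, the complex was an ordinary one. It held 12 Ubx peaks of Experiment 1 against a window median of 14 (range 1 to 35), and 11 Abd-A peaks against 16 (2 to 40). For Abd-B its 19 peaks lay below the median of 28 (8 to 58), and 65 windows had more. In Experiment 2 the 10 Ubx peaks stood beside a median of 13 (2 to 40), the 5 mutant peaks beside 4 (0 to 23) and the 23 Ubx+Hth peaks at the median of 23 (3 to 52). The complex was therefore within the range of the other windows for all 6 conditions. For Abd-B it stood in the lower part of that range, where 11 windows had fewer peaks. It also stood low for Abd-A, where 57 windows had more peaks and 17 had fewer.

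**Figure D2:**
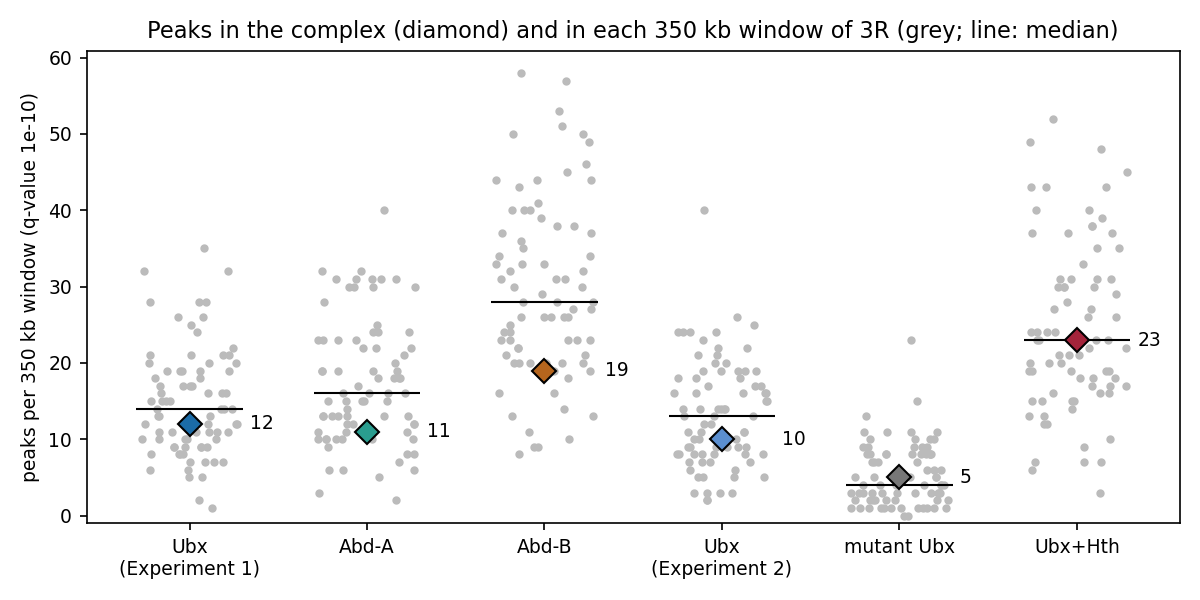
Number of stringent peaks per 350 kb window of 3R for each condition, with grey points for the windows, a black line at their median and a coloured diamond for the Antennapedia complex. The diamonds, at 12, 11, 19, 10, 5 and 23 peaks, lie within the grey points of every condition. They lie below the line for Ubx of Experiment 1 (median 14), Abd-A (16), Abd-B (28) and Ubx of Experiment 2 (13). For mutant Ubx (median 4) the diamond lies above the line, and for Ubx+Hth (median 23) on it.

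Peaks covered less of the complex than of the arm in all 6 conditions. Stringent Ubx peaks of Experiment 1 covered 1.89% of the complex and 2.75% of 3R, Abd-A peaks 2.04% and 3.80%, and Abd-B peaks 3.24% and 7.42%. In Experiment 2 the shares were 1.60% and 2.30% for Ubx, 0.356% and 0.551% for mutant Ubx, and 3.11% and 4.85% for Ubx+Hth. Peaks of the complex were about as wide as elsewhere for Ubx of Experiment 1 (median 498.5 bp against 502 bp on 3R) and Abd-A (575 and 567 bp). They were narrower for Abd-B (420 and 601 bp), Ubx of Experiment 2 (419.5 and 464 bp), mutant Ubx (221 and 298 bp) and Ubx+Hth (403 and 484 bp). The lower coverage for Abd-B thus came with both fewer and narrower peaks.

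Several peaks of the complex stood high in their lists. The median place of the 12 Ubx peaks of Experiment 1 was the top 22.9% of the list, against 48.2% for all Ubx peaks of 3R, and the lowest of the 12 stood at 48.6%. The 11 Abd-A peaks had the same median, 22.9%, against 50.4% on 3R. The 19 Abd-B peaks, at 48.9% against 47.3%, did not share this place, so the complex held comparatively high-ranked Ubx and Abd-A peaks and middling Abd-B peaks. In Experiment 2 the medians were 36.6% for Ubx (51.8% on 3R), 43.5% for mutant Ubx (49.5%) and 35.4% for Ubx+Hth (50.1%). Of the 23 Ubx+Hth peaks, 5 were among the highest 10% of the list, a class that held 10.7% of all Ubx+Hth peaks of 3R. In Experiment 1 this class held 2 of 12 Ubx peaks (10.5% on 3R), 2 of 11 Abd-A peaks (10.5%) and 1 of 19 Abd-B peaks (11.2%). It held 1 of 10 Ubx peaks of Experiment 2 (10.3%) and 1 of 5 mutant peaks (9.13%).

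The stringent peaks of the 6 lists fell into 25 sites, a site being a run of overlapping peaks. Named by the distance of their middle from the lab end, 5 sites had a peak in all 6 lists, at 54.7, 105, 254, 258 and 347 kb. Over 3R, 13.1% of sites had a peak in all 6 lists. A further 5 sites, at 5.95, 114, 137, 143 and 145 kb, had a peak in every list but that of mutant Ubx (16.7% of sites on 3R). A single list called 8 of the 25 (36.8% on 3R), 6 of them for Ubx+Hth and 2 for Abd-B. In 15 of the 25 sites all 6 conditions had a peak at one or the other q-value (46.4% of sites on 3R).

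Ubx+Hth had a peak at 23 of the 25 sites (66.8% of sites on 3R) and Abd-B at 19 (90.2%). Ubx of Experiment 1 and Abd-A were each called at 11 (39.6% and 48.7% on 3R), Ubx of Experiment 2 at 10 (35.3%) and mutant Ubx at 5 (14.7%). Sites of Ubx+Hth alone made up 6 of the 25, against 7.41% of the sites of 3R. Sites of Abd-B alone made up 2, against 28.6%, and sites of Abd-B and Ubx+Hth with no other list made up 6, against 10.9%. The Ubx+Hth list therefore took a larger and the Abd-B list a smaller share of the sites here than along the arm, with 25 sites as the base and without a test.

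**Figure D3:**
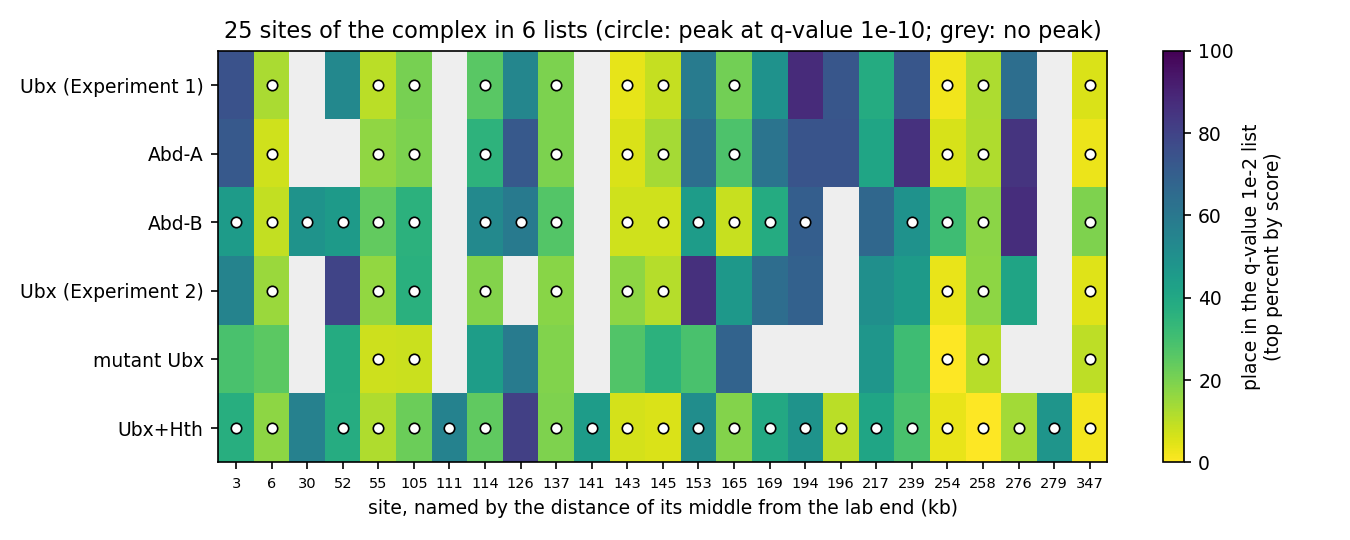
The 25 stringent sites of the Antennapedia complex (columns, named by rounded distance from the lab end in kb) in the 6 conditions (rows). Colour gives the place of the peak in its relaxed list as top percent by score, with yellow nearest the top, a circle marks a stringent peak and grey marks no peak at either q-value. Circles fill all 6 rows at 5 sites, and the Ubx+Hth row has circles at 23 of the 25.

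The site called in all lists at 254 kb (3R, 2733777 to 2734223) was the highest of the complex in 3 of them. Ubx of Experiment 1 scored 130.4 there, rank 202 of 4830. Ubx of Experiment 2 scored 89.5, rank 281 of 4218. Mutant Ubx scored 111.7 and ranked 21 of 1793, in the top 1.17% of its list, while its other 4 peaks of the complex scored from 23.2 to 26.7. In the longer relaxed list, where this peak again ranked 21, the mutant peaks at 54.7, 105 and 347 kb also stood in the top 10%, at 7.56%, 8.15% and 9.99%. Abd-A scored 92.0 there (rank 572 of 5656) and Ubx+Hth 198.4 (rank 394 of 7971). Abd-B scored 79.0 and ranked 4114 of 9681, in the top 42.5%. The site thus stood in the top 10.1% or higher of 5 lists and near the middle of that of Abd-B.

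The neighbouring site at 258 kb (3R, 2737840 to 2739092) carried the strongest Ubx+Hth peak of the complex. Its score of 351.0 was rank 7 of 7971, the top 0.0878% of the list. Ubx of Experiment 2 without Hth scored 37.8 at this site, rank 1578 of 4218 and the top 37.4%. The same site was rank 1124 in the Ubx list of Experiment 1 (score 60.5), 1162 in the Abd-A list (66.3), 2295 in the Abd-B list (119.2) and 995 in the mutant list (23.2). It was therefore one of the 10 highest peaks of the whole Ubx+Hth list and a middling or moderately high peak in the other 5 lists.

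At the Antp end, the site at 347 kb (3R, 2826235 to 2827092) was the highest Abd-A peak of the complex, with a score of 122.6 and rank 286 of 5656. Ubx+Hth reached 239.6 there, rank 188 of 7971. Ubx scored 89.9 in Experiment 1 (rank 517) and 74.4 in Experiment 2 (rank 440). Abd-B scored 111.45 (rank 2551) and mutant Ubx 23.4 (rank 948). Ubx, Abd-A and Ubx+Hth thus placed this site in the top 10.7% of their lists or higher, whereas Abd-B placed it at 26.4% and mutant Ubx at 52.9%.

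The other 2 sites with a peak in all 6 lists lay nearer the lab end. At 54.7 kb (3R, 2534524 to 2534974) the scores were 66.6 for Ubx of Experiment 1, 55.3 for Abd-A, 96.3 for Abd-B, 38.5 for Ubx of Experiment 2, 26.7 for mutant Ubx and 109.1 for Ubx+Hth. At 105 kb (3R, 2585232 to 2585617) they were 43.3, 49.4, 69.2, 21.2, 25.8 and 69.9 in the same order. After the peak at 254 kb, these were the highest mutant peaks of the complex, at ranks 727 and 780 of 1793.

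The highest Abd-B peaks of the complex were elsewhere. The first, at 143 kb (3R, 2622215 to 2623236), scored 183.9 and ranked 931 of 9681. It was also the second highest peak of Ubx of Experiment 1 (108.7, rank 336) and of Abd-A (94.7, rank 536). The second Abd-B peak, at 165 kb (3R, 2644983 to 2645821), scored 172.0 (rank 1088), whereas Ubx of Experiment 1 scored 41.8 (rank 1971) and Abd-A 38.4 (rank 2760), and Ubx of Experiment 2 had only a relaxed peak of score 16.5. The third, at 5.95 kb (3R, 2485584 to 2486316), scored 164.1 (rank 1200) and was shared with every list but that of the mutant, which had a relaxed peak of 13.6. Of the 3, the site at 165 kb was thus the one where Abd-B stood in the top 11.2% of its list and Ubx and Abd-A only in the top 40.8% and 48.8%. Of the 3 highest Ubx peaks of Experiment 2, the last was next to the first of these sites, at 145 kb (score 49.1, rank 1016 of 4218). This single peak, 1496 bp wide, covered a place that held 2 separate peaks in the stringent Ubx list of Experiment 1. A single peak also covered it in the stringent Abd-A (1640 bp) and Abd-B (1757 bp) lists and in the relaxed Ubx list of Experiment 1 (1823 bp).

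Within Experiment 1 sharing was one-sided. All 12 Ubx peaks of the complex had an Abd-A partner (95.1% of Ubx peaks on 3R), a partner being a peak of the other list such that each covers at least 5% of the other. All 12 also had an Abd-B partner (98.3%). All 11 Abd-A peaks were shared with Abd-B (97.2%) and with Ubx (76.0%). In the other direction, 11 of the 19 peaks of Abd-B were shared with Ubx, 57.9% (Wilson 95% interval 36.3 to 76.9) against 43.4% on 3R, and 11 with Abd-A, against 52.9%. No stringent Ubx or Abd-A peak of the complex was therefore without a stringent Abd-B peak. The shares of 3R, 98.3% and 97.2%, were nearly as high. In the other direction, 8 stringent Abd-B peaks were without a stringent Ubx peak. With both lists relaxed, Abd-B was paired with 20 of 21 Ubx peaks and with 19 of 20 Abd-A peaks. The unpaired peak of each list lay at 196 kb. In the relaxed Ubx and Abd-A lists 18 and 17 of the 19 Abd-B peaks had a partner (74.6% and 79.8% on 3R). With the Abd-B list cut to the length of the Ubx list, 4830 peaks, every remaining Abd-B peak had a Ubx partner. That cut removed all 8 Abd-B peaks without one, at ranks 5141 to 9136. No share of 3R was computed at equal length.

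Where Ubx and Abd-B shared a place, Ubx was more often the one nearer the top of its own list, as a percentage of the list. The Abd-B partner stood nearer the top for 3 of the 12 Ubx peaks, whereas on 3R it did so for 73.7% of shared Ubx peaks. The 12 are Ubx peaks and not separate places, because 2 neighbouring ones had the same Abd-B peak, and the same Abd-A peak, as partner. The median place was 22.9% in the Ubx list and 33.3% in the Abd-B list over the complex, and 47.2% and 23.4% over 3R. The order of the medians was thus the opposite of that along the arm. By rank number, which favours the shorter Ubx list, Abd-B stood higher at 1 of the 12 (42.3% on 3R). The Abd-A partner stood nearer the top for 5 of the 12 Ubx peaks as a percentage (67.9% on 3R) and for 2 by rank number (53.8%).

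In Experiment 2 the 10 Ubx peaks of the complex were all found again with Hth (98.4% of Ubx peaks on 3R), and at all 10 the Ubx+Hth peak stood nearer the top of its list as a percentage (80.7%). The Ubx+Hth list is the longer one, 7971 peaks against 4218, and an equal rank number is a smaller percentage of a longer list. By rank number Ubx+Hth stood higher at 6 of the 10 (36.5% on 3R). The median place was 36.6% for Ubx and 14.2% for Ubx+Hth, a median difference of −11.8 percentage points, against −12.8 on 3R. Conversely, 10 of the 23 Ubx+Hth peaks had a Ubx partner, 43.5% (25.6 to 63.2) against 49.9% on 3R. The other 13 Ubx+Hth peaks lay at 13 sites without a stringent Ubx peak. Ubx of Experiment 2 had a relaxed peak at 9 of these 13, against 75.3% of such sites on 3R, and none at the other 4.

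The highest of these 13 sites was at 196 kb (3R, 2675596 to 2676055), with a Ubx+Hth score of 119.98, rank 1271 of 7971. Ubx of Experiment 2, mutant Ubx and Abd-B had no peak there at either q-value, and Ubx of Experiment 1 and Abd-A had relaxed peaks with scores of 10.5 and 11.1. The next, at 276 kb (3R, 2756092 to 2756500), had a Ubx+Hth score of 98.5 (rank 1757) beside relaxed scores of 18.5 for Ubx of Experiment 2, 13.4 for Ubx of Experiment 1, 10.4 for Abd-B and 7.77 for Abd-A. Both sites had a Ubx+Hth peak in the upper part of its list and at most relaxed peaks in the others. The relaxed peak of Ubx of Experiment 2 at 276 kb stood in the top 41.6% of its list, above the relaxed median score on 3R (15.8). The other relaxed peaks at these sites stood in the lower part of their lists. Both sites were picked out after their values were seen.

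Mutant Ubx had a peak at 5 of the 10 places of Ubx of Experiment 2, 50% (23.7 to 76.3) against 34.2% on 3R. Each of the 5 mutant peaks had a Ubx partner (91.3%) and a Ubx+Hth partner (96.3%), and 5 of the 23 Ubx+Hth peaks had a mutant partner (21.7% against 19.5% on 3R). A minimum overlap of 50% in place of 5% left 30% of the Ubx peaks with a mutant partner and 60% of the mutant peaks with a Ubx partner. It left 40% of the mutant peaks with a Ubx+Hth partner and 8.70% of the Ubx+Hth peaks with a mutant partner. Mutant peaks of the complex were narrower (median 221 bp) than those of Ubx (419.5 bp) and Ubx+Hth (403 bp). The part of width in these shares was not tested, and no share of 3R was computed at 50%. At the 5 Ubx sites without a stringent mutant peak the mutant had a relaxed peak, so all 10 Ubx peaks had a mutant partner at one q-value or the other (88.2% on 3R). The mutant peak stood nearer the top than its Ubx partner at 2 of the 5 shared places as a percentage of the list (26.0% on 3R) and at 4 by rank number (62.4%).

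Between the experiments, 11 of the 12 Ubx peaks of Experiment 1 had a Ubx partner in Experiment 2 (91.7% against 75.1% on 3R) and all 10 of Experiment 2 had one in Experiment 1 (84.9%). The peak without a partner was the one at 165 kb. The Ubx lists of the experiments, both from Kc167 cells, differ in the harvest of cells, number of replicates, sequencing platform, read length and depth. The parts of these in the shares cannot be told apart. Abd-B and Ubx+Hth, the longest lists of the respective experiments, had 17 places in common. These were 89.5% of the 19 Abd-B peaks (68.6 to 97.1, against 64.5% on 3R) and 73.9% of the 23 Ubx+Hth peaks (53.5 to 87.5, against 87.3%). At the 6 sites that belonged to Abd-B and Ubx+Hth without another stringent list, the Abd-B scores ran from 22.0 to 63.8 and the Ubx+Hth scores from 26.2 to 55.2, all below the median score of that protein in the complex (69.2 for Abd-B and 69.9 for Ubx+Hth).

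**Figure D4:**
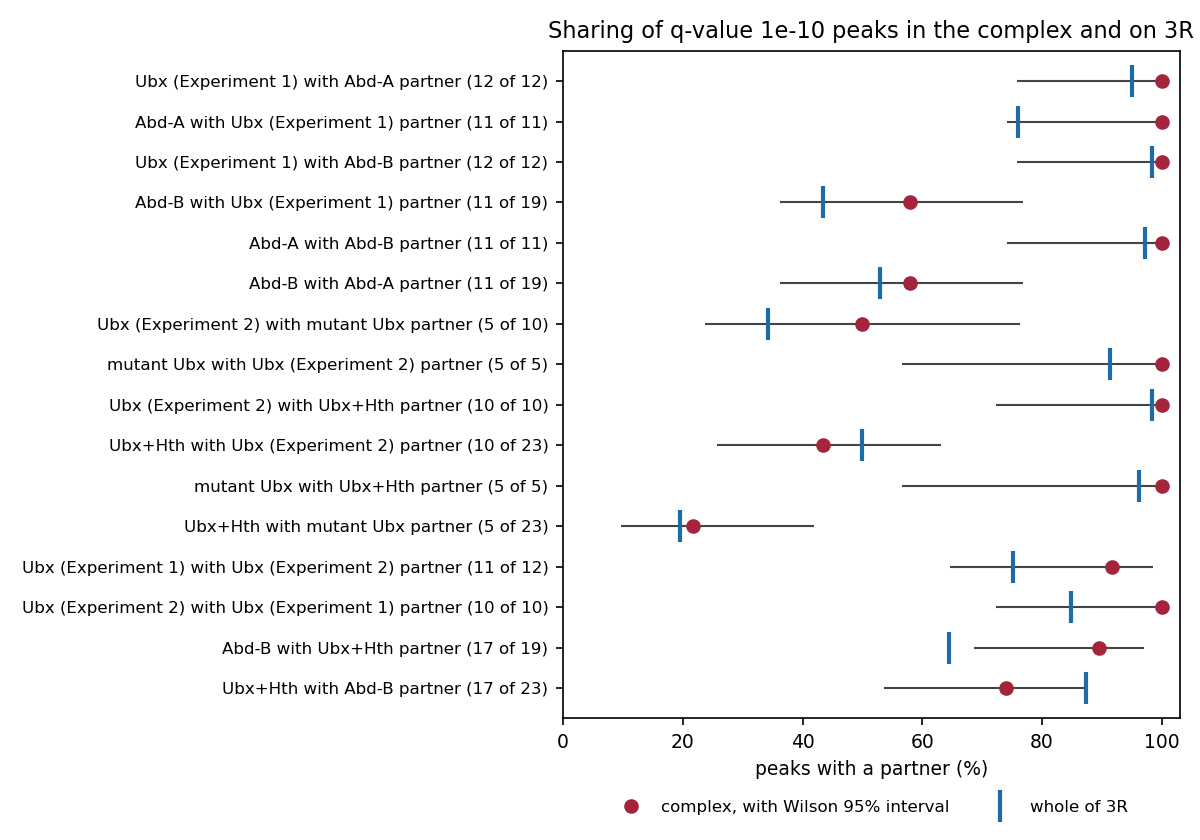
Share of the stringent peaks of 1 list in the Antennapedia complex that had a stringent partner in another list (red point, %), with its Wilson 95% interval (line), and the same share over the whole of 3R (blue tick), for 16 ordered pairs. All peaks of the complex had a partner for 8 of the 16 pairs, and the Abd-B peaks with a Ubx+Hth partner (89.5%) and the 3R share of 64.5% lie farthest apart.

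Peaks were spread unevenly along the complex. In 10 equal parts of 35 kb from the lab end to the Antp end, the 25 sites were divided as 3, 2, 0, 5, 6, 2, 2, 4, 0 and 1. Parts 4 and 5 together, from 105 to 175 kb, held 11 sites and 38 of the 80 stringent peaks, and every list but that of mutant Ubx had 5 or more of its peaks there. Part 8, with the sites at 254 and 258 kb, held 14 peaks. Parts 3 and 9 held none.

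The longest stretch without a stringent peak of any list ran over 67.4 kb, 19.3% of the region, from 2758840 to 2826234. It began after a Ubx+Hth peak at 279 kb (3R, 2758602 to 2758839, score 28.6, rank 6166), called in no other list, and ended at the site at 347 kb called in all 6. On 3R 53 of the 2548 stretches between neighbouring sites were at least as long, and their median was 3.38 kb. In the relaxed lists an Abd-B peak with a score of 14.0 fell within it and the longest stretch was 55.0 kb. Mutant Ubx had the longest stretch of any single stringent list, 148 kb between the sites at 105 and 254 kb, within which each of the other 5 lists had peaks.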

How the data were processed

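The authors used Bowtie 1.0.1 to map reads to BDGP release 5 and kept those with a unique position. Replicates were then combined, reads over exons of the expressed genes (none of them in the Antennapedia complex) were filtered out and MACS2 2.1.0.20140616 called peaks against input. The deposited files hold peak positions and a score, the −log10 of the q-value, with a minimum near 10 (stringent) or 2 (relaxed). Members and comparisons were chosen with earlier results of these data known. Counts, densities, overlaps (at least 5% of both peaks) and ranks were computed with python 3.11.15, pandas 2.3.3, numpy 2.4.6 and scipy 1.17.1, and plotted with matplotlib 3.10.9. The overlap step was tested on simulated peaks. The length of 3R was the span of its peaks, 27.9 Mb. Peaks named were the 3 highest of each stringent list, sites in all 6 lists, the 3 highest sites of Abd-B, Ubx+Hth, both, or the mutant alone, and the peaks flanking the longest stretch without one. No test was run because replicates had been pooled. Sequences and gene positions were not used here. The alternatives were other bounds, q-values, overlaps and equal list lengths.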

Additional observations from a re-analysis of the deposited data

How the results depend on the processing

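No value has a replicate error, depth cannot be read from the lists, and every list shares 1 input, so a place where that input eased or hindered calling would recur across lists. No paired analysis was possible because replicates had been combined before peaks were called, and for the same reason no replicate could be left out. Within 1.5 times of the value given lay 29 of 36 alternative counts of peaks and 1 of 6 covered lengths. Within the counting interval of the value given lay 39 of 42 density ratios and 62 of 80 shares, and within the interquartile range 5 of 6 median places. At a q-value of 1e-2 the counts moved to 21 for Ubx of Experiment 1, 20 for Abd-A, 19 for Ubx of Experiment 2 and 24 for mutant Ubx, and the covered share to 3.86%, 3.78%, 3.41% and 2.58% for these and 4.90% for Ubx+Hth. The median place of mutant Ubx peaks moved to 37.1%. With lists of 1793 peaks the counts were 7 Abd-A, 3 Abd-B and 8 Ubx+Hth peaks, and the density ratios 1.40 for Ubx of Experiment 1, 1.28 for Abd-A, 1.69 for Ubx of Experiment 2 and 1.47 for Ubx+Hth, all below 1 with whole lists. With the bounds of the region moved in by 50 kb the ratio was 1.04 for mutant Ubx and 1.15 for Ubx+Hth. Lists of equal length within a pair drop the lower-ranked peaks of the longer list, and no share of 3R was computed for them. They gave 100% of Abd-B peaks with a Ubx partner, 90.9% with an Abd-A partner, 71.4% of Ubx+Hth peaks with a Ubx partner and 50% with a mutant partner. With both lists relaxed these 4 shares were 82.6%, 78.3%, 67.9% and 64.3% (60.3%, 65.2%, 67.2% and 49.5% on 3R). In that setting 84.2% of Ubx peaks of Experiment 2 had a mutant partner (63.1% on 3R). With only the partner relaxed the 4 were 94.7%, 89.5%, 82.6% and 69.6% (74.6%, 79.8%, 87.3% and 66.2% on 3R). The share was then 100% for Ubx of Experiment 2 with mutant Ubx (88.2% on 3R). It was also 100% for Ubx of Experiment 1 with Ubx of Experiment 2 (97.2%) and for Abd-B with Ubx+Hth (81.8%). With a minimum overlap of 50%, 40% of mutant peaks had a Ubx+Hth partner, 8.70% of Ubx+Hth peaks a mutant partner, and the shares between Ubx and mutant Ubx fell to 30% and 60%. No share of 3R was computed at this overlap. Rank number in place of percentage was chosen after seeing the data. With it the partner stood higher for 6 of 10 Ubx peaks with Ubx+Hth, 4 of 5 with mutant Ubx, 1 of 12 with Abd-B and 2 of 12 with Abd-A. The cause was not tested.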

Other observations

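The relaxed lists held 11 sites of the complex that no stringent list had, and each of the 11 belonged to a single condition, 6 to mutant Ubx, 3 to Abd-B and 2 to Ubx+Hth. The 3 highest of the mutant alone lay at 3R, 2511007 to 2511189 (score 9.71), 2555204 to 2555384 (6.25) and 2493043 to 2493499 (3.28). The 3 of Abd-B alone lay at 2770746 to 2771180 (score 14.0), 2643502 to 2643808 (13.0) and 2671430 to 2671729 (8.58), the first of them inside the longest stretch without a stringent peak. Ubx, in either experiment, and Abd-A had no site of their own in the complex at either q-value. The shares of such sites over 3R were not computed, so these counts are not set beside the arm.

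The sites of Ubx+Hth alone at either q-value all scored below the median Ubx+Hth score of the complex (69.9 stringent, 48.1 relaxed). The 3 highest were 31.8 at 141 kb from the lab end (3R, 2621190 to 2621436), 28.6 at 279 kb (2758602 to 2758839) and 22.5 at 111 kb (2590631 to 2590836). The first 2 of these scores exceeded the median of relaxed Ubx+Hth peaks on 3R (27.7). The only site that belonged to Abd-B and Ubx+Hth alone at either q-value lay at 29.6 kb (3R, 2509480 to 2509756), with an Abd-B score of 47.1 and a relaxed Ubx+Hth score of 22.1.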
